A study of Rattus norvegicus with 12 samples.

Results

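The 10 genes described here encode protease inhibitors of blood plasma and 2 close relatives of such inhibitors. They are the murinoglobulin Mug1, alpha-2-macroglobulin A2m, the serpins Serpina1, Serpina3n, Serpinc1, Serpind1, Serpinf1 and Serpinf2, and Itih3 and Itih4 of the inter-alpha-inhibitor family. They were chosen by symbol: a probe set was included where the platform annotation gives it 1 of these symbols and no other. All 10 genes were found, each with 1 probe set, so they make up 10 of the 31099 probe sets and 10 of the 14217 genes with a probe set of their own. Expression was measured on 12 arrays of RNA from rat hepatocytes (strain Fischer 334), which were isolated from the liver by a two-step collagenase perfusion and not cultured. The donors were heart-beating rats and nonheart-beating rats used 4, 16 or 30 h after death, with 3 donor animals and 3 arrays in each group. No drug, diet or genetic change is given for any group, and the labels give no age or sex. The question of the design is what becomes of hepatocyte transcripts when cells are taken some hours after death instead of from a heart-beating rat.

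Plasma protease inhibitors are secreted mainly by hepatocytes and keep blood proteases in check. Serpins present a reactive loop as bait and are trapped with the protease that cuts it in an inactive covalent complex. Macroglobulins such as A2m enclose a protease after it cuts their bait region. The rodent murinoglobulins, which include the rat protein called alpha-1-inhibitor III, belong to the same family. Some heavy chains of the inter-alpha-inhibitor family, such as Itih3, are joined to the small inhibitor bikunin and passed on to hyaluronan in the matrix. In the rat, A2m is a classic acute-phase protein, low in the healthy adult and strongly induced by inflammation, while the murinoglobulin of plasma falls in the acute phase.

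Mug1 belongs to a cluster of near copies, which may bear on what its probe set can read. In RefSeq (assembly GRCr8) A2m, Mug1l1, Mug1 and Mug2 follow each other with 0 other protein-coding genes starting between neighbours. The 300 bases around the start sites of the 3 murinoglobulin genes (plus strand) are shown to let a reader judge how alike the copies are there. Capitals mark the longest run of bases that all 3 hold unchanged, which is 40 bases long.
Mug1, chr4:156748145-156748444: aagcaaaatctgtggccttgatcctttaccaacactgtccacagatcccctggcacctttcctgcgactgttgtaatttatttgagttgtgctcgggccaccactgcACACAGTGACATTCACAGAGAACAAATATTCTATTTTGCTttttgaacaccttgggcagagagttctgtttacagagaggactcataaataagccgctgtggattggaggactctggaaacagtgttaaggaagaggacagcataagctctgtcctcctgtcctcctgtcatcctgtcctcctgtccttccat
Mug1l1, chr4:156652123-156652422: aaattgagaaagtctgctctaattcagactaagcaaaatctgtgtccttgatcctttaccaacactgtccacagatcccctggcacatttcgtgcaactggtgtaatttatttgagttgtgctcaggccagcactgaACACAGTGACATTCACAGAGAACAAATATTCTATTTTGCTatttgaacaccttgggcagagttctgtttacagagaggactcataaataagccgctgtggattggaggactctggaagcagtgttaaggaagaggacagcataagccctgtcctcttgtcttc
Mug2, chr4:156835905-156836204: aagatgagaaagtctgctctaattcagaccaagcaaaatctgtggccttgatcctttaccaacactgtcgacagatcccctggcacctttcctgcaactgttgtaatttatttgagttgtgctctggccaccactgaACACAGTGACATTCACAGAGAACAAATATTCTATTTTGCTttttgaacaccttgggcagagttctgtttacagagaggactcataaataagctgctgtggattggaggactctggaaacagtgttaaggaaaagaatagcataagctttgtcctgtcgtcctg
The Mug1 stretch matched that of Mug1l1 at 257 of 272 aligned bases (94.5%) and that of Mug2 at 257 of 272 (94.5%), and Mug1l1 matched Mug2 at 278 of 300 (92.7%). All 3 hold TGTTTAC, a core sequence bound by forkhead factors such as the FOXA proteins of liver, searched on both strands. It occurs in 3.78% of 33469 RefSeq promoter stretches of this length, and in 1 of the 8 members with such a stretch, Mug1 itself. These are letters in a window of a reference genome, not evidence of binding. Likeness around the start sites does not show which transcript stretch a probe set reads, and no transcripts were compared. The array probes' own sequences were not used here, so signal from Mug1 and from its copies cannot be told apart.

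The deposited values are log2 signals, relative to the other probe sets on the same array. An increase of 1 is a doubling of signal. Array medians lay between 5.83 and 5.90, and single values in the table between 2.99 and 14.51. The probe sets of the 8 members other than Mug1 and A2m were very bright, with mean signals from 11.41 to 13.71. Each of them exceeded at least 98.9% of all probe sets tested, so changes in them lie in a range where array signals can be compressed. Mug1 exceeded 82.4% and A2m 34.2%. RNA quality changed with time after death. The 3' probe set of the Gapdh control exceeded the 5' one by 0.39 ± 0.08 log2 units (SD, n = 3) for heart-beating rats. After death the excess was 0.38 ± 0.10 (4 h), 1.05 ± 0.20 (16 h) and 1.97 ± 0.29 (30 h). For the beta-actin control it was 1.85 ± 0.05 (heart-beating), 1.71 ± 0.15 (4 h), 2.21 ± 0.33 (16 h) and 2.87 ± 0.11 (30 h). Below, called means an adjusted p (Benjamini-Hochberg) under 0.05 in limma over all 31042 probe sets that are not controls, from 1 fit of the 4 groups. For the labelled cell type, the 9 measured hepatocyte markers had a mean log2 signal of 12.09 to 12.54 on arrays after death and 12.32 to 12.45 on heart-beating arrays. Signals of macrophage, endothelial, stellate and red cell markers were also present and moved with time, as given below.

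**Figure D1:**
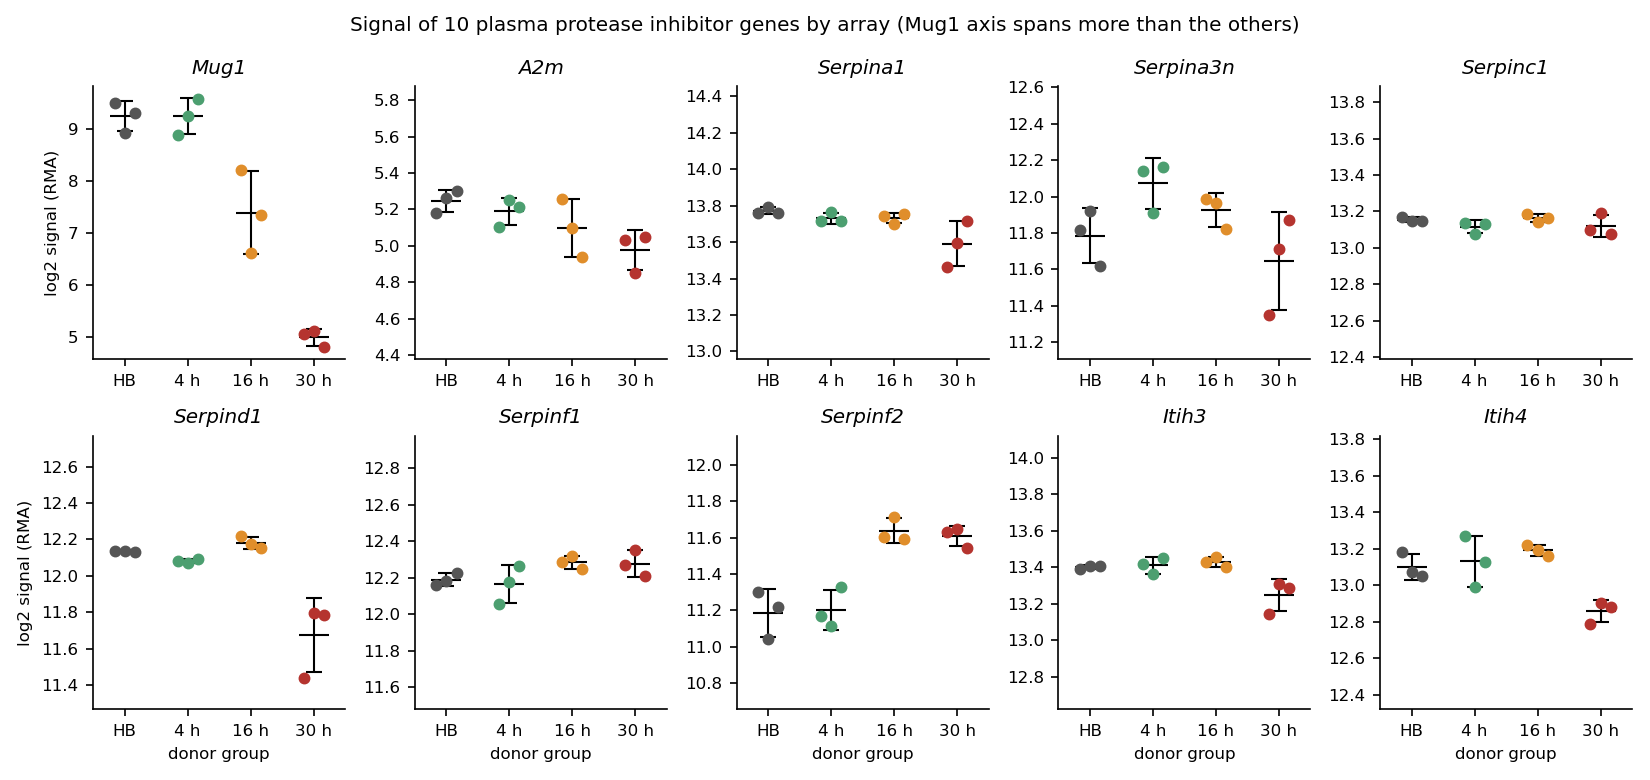
Log2 signal (vertical axis) of the 10 genes on each array, by donor group (HB, heart-beating; 4, 16 and 30 h after death). Points are animals 1 to 3 from left to right, and lines with bars are mean ± SD. Mug1 drops to 4.99 at 30 h, Serpinf2 stands higher at 16 and 30 h, and Serpind1 and Itih4 are lower at 30 h. Each axis other than that of Mug1 spans 1.5 log2 units.

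Mug1, the murinoglobulin, fell at 16 h and 30 h on the probe set annotated to it alone. The measured 30 h difference of this probe set was the most negative of the 31042 probe sets. Its log2 signals were 9.50, 8.93 and 9.31 in heart-beating donors, 8.89, 9.25 and 9.58 at 4 h, 8.22, 6.61 and 7.35 at 16 h, and 5.05, 5.11 and 4.81 at 30 h. The 4 h animals overlapped the heart-beating ones, every 16 h animal lay below both groups, and every 30 h animal lay below every 16 h animal. At 16 h the mean was 7.39 ± 0.81, against 9.25 ± 0.29 in heart-beating donors (log2 difference -1.86, SE 0.31, adjusted p = 0.00600), which is 27.6% of the heart-beating signal. At 30 h the mean was 4.99 ± 0.16, against the same 9.25 ± 0.29 (log2 difference -4.26, SE 0.31, adjusted p = 4.78e-06), or a measured 5.23% of the heart-beating signal. The 30 h signal lay below every array median and was brighter than 31.0% of probe sets, against 94.0% in heart-beating donors. Whether it was above background was not tested, so the 30 h difference, its percentage and its rank are read as limits set by a dim signal. At 4 h the difference was -0.01 (SE 0.31, 95% interval -0.66 to 0.65, adjusted p = 1.00). In bulk RNA such as this, fewer cells that make a transcript and less of it per cell cannot be told apart.

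On the probe set annotated to Mug1 alone, the signal kept dropping through both later intervals. Against the 4 h animals, the 16 h animals were lower by a log2 difference of -1.85 (SE 0.31, adjusted p = 0.00342), which over 12 h is -0.15 per hour (SE 0.03). Against the 16 h animals, the 30 h animals were lower by -2.40 (SE 0.31, adjusted p = 0.000611), or a measured -0.17 per hour (SE 0.02) over 14 h, which ends in that dim signal. These rates compare different animals and were not tested against each other. The spread among the 16 h animals was the widest of any group for Mug1. Animal 2 had the lowest Mug1 signal at 16 h and the widest Gapdh difference (1.25), animal 1 the highest Mug1 signal and the narrowest Gapdh difference (0.85), and animal 3 lay between in both (7.35 and 1.06). At 30 h the order did not match: the widest Gapdh difference (2.31, animal 1) went with a Mug1 signal of 5.05, between the other two. With the Gapdh difference as a covariate, Mug1 differed by -2.55 at 30 h (SE 1.09, adjusted p = 0.320) and -1.14 at 16 h (SE 0.52, adjusted p = 0.231), and neither was called. At 30 h that fit called 0 of all 31042 probe sets, of which 14.3% had an unadjusted p under 0.05. RNA quality and time after death cannot be told apart in this design. The Gapdh ranges of the 16 h and 30 h arrays overlap neither each other nor the earlier groups. The beta-actin range at 30 h (2.75 to 2.95) also overlaps no other. At 16 h the beta-actin range (1.89 to 2.54) overlaps that of heart-beating donors (1.80 to 1.90). The beta-actin difference was not used as a covariate.

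A second probe set for murinoglobulin gave a much smaller difference. It is annotated to Mug1, Cpamd8 and Mug1l1 together, so it is no member, but the transcript it was annotated from is the one RefSeq gives for Mug1. Its signals were 13.49, 13.44 and 13.50 in heart-beating donors, 13.43, 13.51 and 13.78 at 4 h, 13.53, 13.25 and 13.32 at 16 h, and 12.84, 13.11 and 13.03 at 30 h. The 30 h animals were all below the heart-beating ones, and the 16 h animals overlapped them. The log2 difference was -0.48 at 30 h (SE 0.10, adjusted p = 0.00505) and -0.11 at 16 h (SE 0.10, adjusted p = 0.607). Between 4 and 16 h this probe set was not called (-0.20, SE 0.10, adjusted p = 0.252). Between 16 and 30 h it was called lower (-0.37, SE 0.10, adjusted p = 0.0351). Within each array, the gap between the Mug1 probe set and this one averaged -8.00 ± 0.22 at 30 h, against -4.23 ± 0.26 in heart-beating donors. The measured change of that gap was -3.77 log2 units (exact two-sided permutation p = 0.1, the smallest that 3 against 3 arrays can give). It sets a dim signal at 30 h against a probe set brighter than 99.9% of all, where signals can be compressed, so its size is uncertain at both ends. At 16 h it averaged -5.98 ± 0.66, against -4.23 ± 0.26 (change -1.75, exact p = 0.1). Both probe sets that carry the name Mug1 were lower at 30 h, and the difference of -4.26 belongs to one of them alone.

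**Figure D2:**
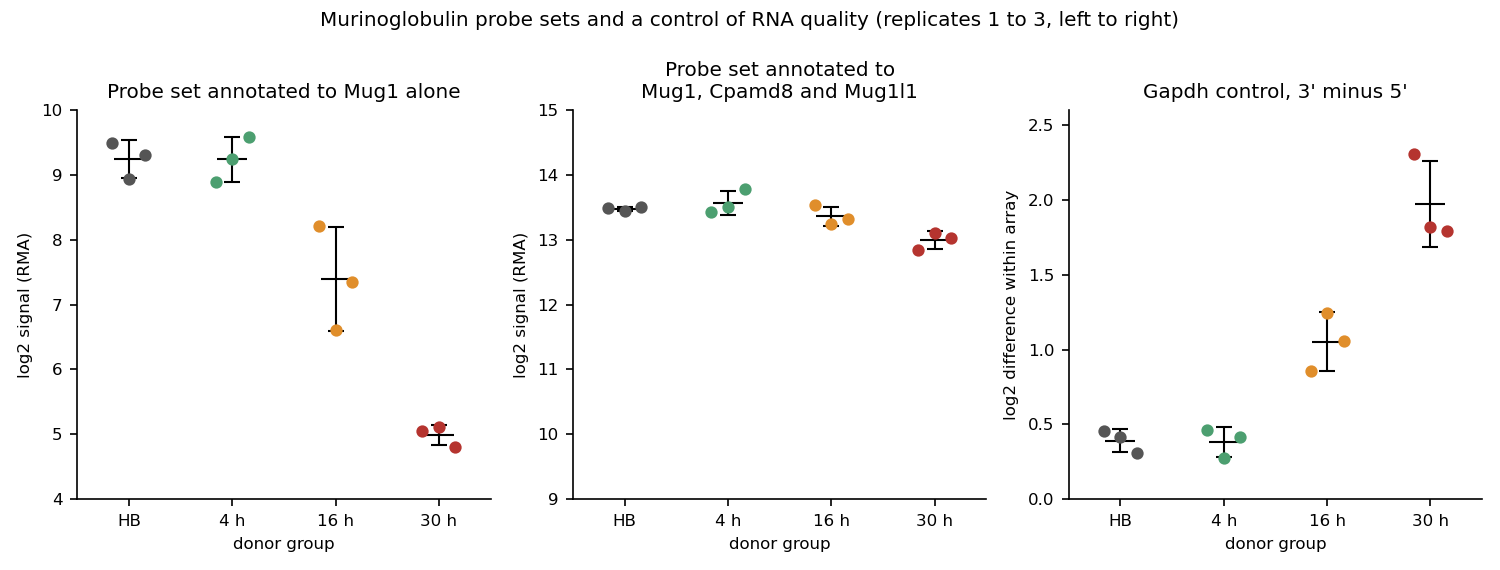
Log2 signal of the probe set annotated to Mug1 alone (left), of the probe set annotated to Mug1, Cpamd8 and Mug1l1 (middle), and the log2 difference between the 3' and 5' Gapdh control probe sets (right), by donor group. Points are animals 1 to 3 from left to right and bars are mean ± SD. The left and middle axes each span 6 log2 units: the first signal drops to 4.99 at 30 h, the second to 12.99, while the Gapdh difference reaches 1.97.

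The probe sets whose course after death lay closest to that of Mug1 belonged to Prlr, the prolactin receptor, Arf1, a small GTPase of the Golgi, Ghr, the growth hormone receptor, Cd36, a fatty acid transporter, and Reep6, a membrane-shaping protein of the endoplasmic reticulum. Closeness was the root mean square difference of the 9 values after death, each taken from its own heart-beating mean. It was 0.82 log2 units for Prlr, 0.96 for Arf1, 1.14 for Ghr, 1.15 for Cd36 and 1.21 for Reep6. At 30 h these probe sets differed from heart-beating donors by -3.14 (Prlr), -2.96 (Arf1), -2.79 (Ghr), -2.78 (Cd36) and -2.38 (Reep6). Other probe sets of the same genes had smaller values. The other probe sets of Prlr differed by -0.43 (adjusted p = 0.0785) and -0.04 (adjusted p = 0.915), that of Arf1 by -0.86 (adjusted p = 0.000466), that of Ghr by -0.65 (adjusted p = 0.00206) and that of Reep6 by 0.29 (adjusted p = 0.411). Cd36 had 1 probe set. Genes were chosen here for their likeness to Mug1, so their own falls are a description, and the difference between probe sets of a gene was not tested.

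**Figure D3:**
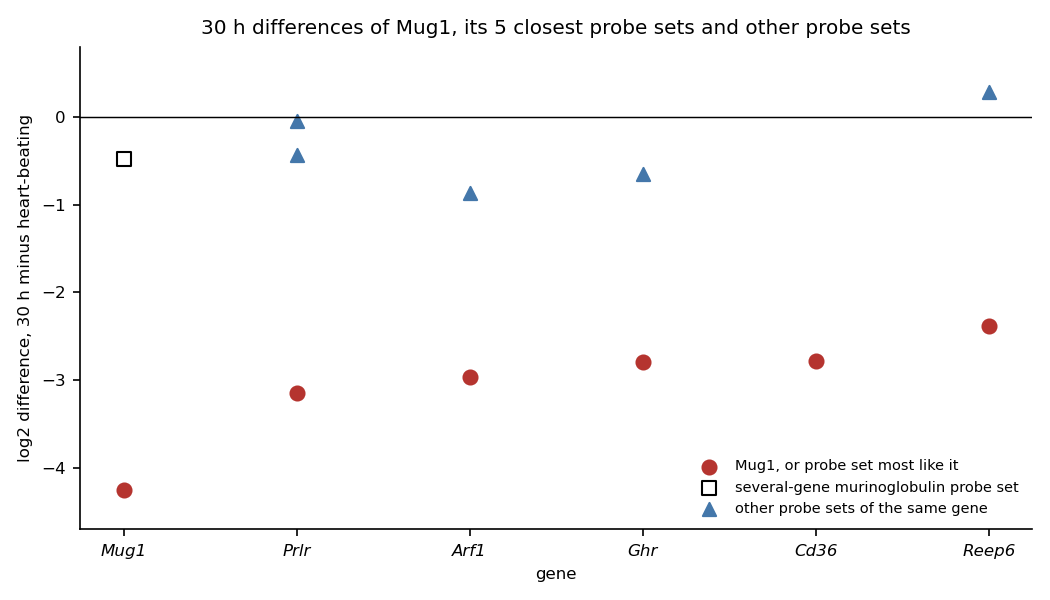
Log2 difference between 30 h and heart-beating donors (vertical axis) for Mug1 and the 5 genes whose probe set followed it most closely. Circles are the probe set named, the open square is the murinoglobulin probe set annotated to several genes, and triangles are other probe sets of the same gene. The circles lie between -4.26 and -2.38, and the square and triangles between -0.86 and 0.29.

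A2m, the large tetrameric macroglobulin next to the murinoglobulins, gave a dim signal in all groups. Its signals were 5.18, 5.26 and 5.30 in heart-beating donors, 5.10, 5.25 and 5.22 at 4 h, 5.26, 5.10 and 4.94 at 16 h, and 5.03, 4.85 and 5.05 at 30 h. No array stood out as high, and the 30 h animals lay just below the heart-beating ones. At 30 h the mean was 4.98 ± 0.11, against 5.25 ± 0.06 in heart-beating donors, and the log2 difference of -0.27 (SE 0.09) passed narrowly (adjusted p = 0.0437). The call was lost in 12 of 21 alternative settings, among them cyclic loess (adjusted p = 0.0507), the replicate block (adjusted p = 0.0727) and leaving out any 1 heart-beating animal (adjusted p = 0.0586 to 0.139). At 4 h (-0.06) and 16 h (-0.15) A2m was not called. No rise of A2m was called at any time, and the upper ends of the 95% intervals were 0.13 at 4 h, 0.04 at 16 h and -0.08 at 30 h. Every A2m signal lay below the lowest array median (5.83), and whether any was above background was not tested. The narrow call and these intervals therefore describe a dim signal, and do not bound a change in the A2m transcript.

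Serpinf2, which encodes alpha-2-antiplasmin, the main inhibitor of the clot-dissolving protease plasmin, was the one member called higher. Its signals were 11.30, 11.04 and 11.22 in heart-beating donors, 11.17, 11.11 and 11.33 at 4 h, 11.61, 11.72 and 11.59 at 16 h, and 11.63, 11.65 and 11.55 at 30 h. The 6 later animals all lay above the 6 earlier ones. At 16 h Serpinf2 averaged 11.64 ± 0.07, against 11.19 ± 0.13 in heart-beating donors (log2 difference 0.45, SE 0.08, adjusted p = 0.00816), which is 137% of the heart-beating signal. At 30 h the mean was 11.61 ± 0.05, against 11.19 ± 0.13 (0.42, SE 0.08, adjusted p = 0.00269). Between 16 and 30 h the difference was -0.03 (SE 0.08, 95% interval -0.20 to 0.14). The rise kept its call in every setting run except with the Gapdh difference as a covariate, where it was 0.34 at 16 h (adjusted p = 0.202) and 0.16 at 30 h (adjusted p = 0.847).

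Serpinf1, the neighbour of Serpinf2 with 0 protein-coding genes starting between them, encodes pigment epithelium-derived factor, a serpin without known protease-inhibiting activity that restrains blood vessel growth. Its signals were 12.16, 12.18 and 12.23 in heart-beating donors, 12.06, 12.18 and 12.26 at 4 h, 12.29, 12.32 and 12.25 at 16 h, and 12.27, 12.35 and 12.21 at 30 h. The 16 h animals lay just above the heart-beating ones, and the 4 h and 30 h animals overlapped them. It was not called at 16 h (0.09, SE 0.07, adjusted p = 0.483) or at 30 h (0.09, SE 0.07, adjusted p = 0.413), with 95% intervals up to 0.24 and 0.23. Within arrays, the gap between Serpinf2 and Serpinf1 averaged -0.645 ± 0.039 at 16 h and -0.669 ± 0.033 at 30 h, against -1.002 ± 0.142 in heart-beating donors. The shift of 0.36 at 16 h and 0.33 at 30 h had an exact permutation p of 0.1 at each time, the smallest possible. Serpinf2 was called higher on these same arrays, so the shift is no separate support for that call.

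Serpind1, which encodes heparin cofactor II, an inhibitor of thrombin, was called lower at 30 h alone. Its signals were 12.14, 12.14 and 12.13 in heart-beating donors, 12.08, 12.07 and 12.09 at 4 h, 12.22, 12.18 and 12.15 at 16 h, and 11.44, 11.80 and 11.79 at 30 h. Replicates agreed closely until 16 h, and the 3 animals at 30 h were all lower, with animal 1 lowest. The 30 h mean was 11.67 ± 0.20, against 12.14 ± 0.01 in heart-beating donors (log2 difference -0.46, SE 0.08, adjusted p = 0.00194). Against the 16 h animals the 30 h difference was -0.51 (SE 0.08, adjusted p = 0.00270), while at 16 h against heart-beating donors it was 0.05 (SE 0.08, adjusted p = 0.812). Without 30 h animal 1 the 30 h difference was -0.34 (adjusted p = 0.00163). With the Gapdh difference as a covariate it turned to 0.24 (SE 0.25, adjusted p = 0.687).

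Serpinc1, which encodes antithrombin, the other heparin-dependent inhibitor of thrombin among these genes, was nearly level. Its signals stayed between 13.07 (4 h animal 2) and 13.19 (30 h animal 2). At 30 h the mean was 13.12 ± 0.06, against 13.15 ± 0.01 in heart-beating donors, a log2 difference of -0.03 (SE 0.06, 95% interval -0.16 to 0.09, adjusted p = 0.738). Serpina1 encodes alpha-1-antitrypsin, which guards tissue against neutrophil elastase. Its signals were 13.76, 13.79 and 13.76 in heart-beating donors, 13.71, 13.76 and 13.71 at 4 h, 13.74, 13.70 and 13.75 at 16 h, and 13.47, 13.60 and 13.71 at 30 h. The 30 h animals lay below the heart-beating ones and were the most spread. Serpina1 averaged 13.59 ± 0.12 at 30 h, against 13.77 ± 0.02 in heart-beating donors (-0.18, SE 0.07, adjusted p = 0.0750). It became called without 30 h animal 3 (-0.24, adjusted p = 0.0220) and after a further quantile normalization (-0.17, adjusted p = 0.0487). Serpina3n, related to human alpha-1-antichymotrypsin and known as an acute-phase serpin in rodents, had the largest difference of any member at 4 h. Its signals were 11.82, 11.92 and 11.62 in heart-beating donors, 12.14, 11.91 and 12.16 at 4 h, 11.99, 11.97 and 11.82 at 16 h, and 11.35, 11.71 and 11.87 at 30 h. Every later group overlapped the heart-beating donors. It averaged 12.07 ± 0.14 at 4 h, against 11.79 ± 0.15 in heart-beating donors (0.29, SE 0.12, unadjusted p = 0.0378, adjusted p = 0.933). That difference did not pass, and at 30 h Serpina3n differed by -0.14 (SE 0.12, adjusted p = 0.487).

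Itih4 and Itih3, heavy chains of the inter-alpha-inhibitor family whose genes lie side by side, were both lower on the 30 h arrays than on those of heart-beating donors. Itih4 read 13.18, 13.07 and 13.05 in heart-beating donors, 13.27, 12.99 and 13.13 at 4 h, 13.22, 13.19 and 13.16 at 16 h, and 12.79, 12.90 and 12.88 at 30 h. Its 30 h animals lay below every other animal, and its earlier groups overlapped. The 30 h mean of 12.86 ± 0.06, against 13.10 ± 0.07 in heart-beating donors, gave a log2 difference of -0.24 (SE 0.08, adjusted p = 0.0376), and against 16 h it was -0.33 (SE 0.08, adjusted p = 0.0144), which lost its call without 16 h animal 1 (adjusted p = 0.0642), after cyclic loess and with the Gapdh covariate. The comparison with heart-beating donors lost its call in 13 of 22 settings, and under cyclic loess the difference was -0.05 (adjusted p = 0.727). Itih3 averaged 13.25 ± 0.09 at 30 h, against 13.40 ± 0.01 in heart-beating donors (-0.16, SE 0.06, adjusted p = 0.0937), and was not called. Within arrays, the gap between Itih4 and Itih3 changed by -0.09 at 30 h (exact permutation p = 0.2), so a difference in response between these neighbours was not shown.

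**Figure D4:**
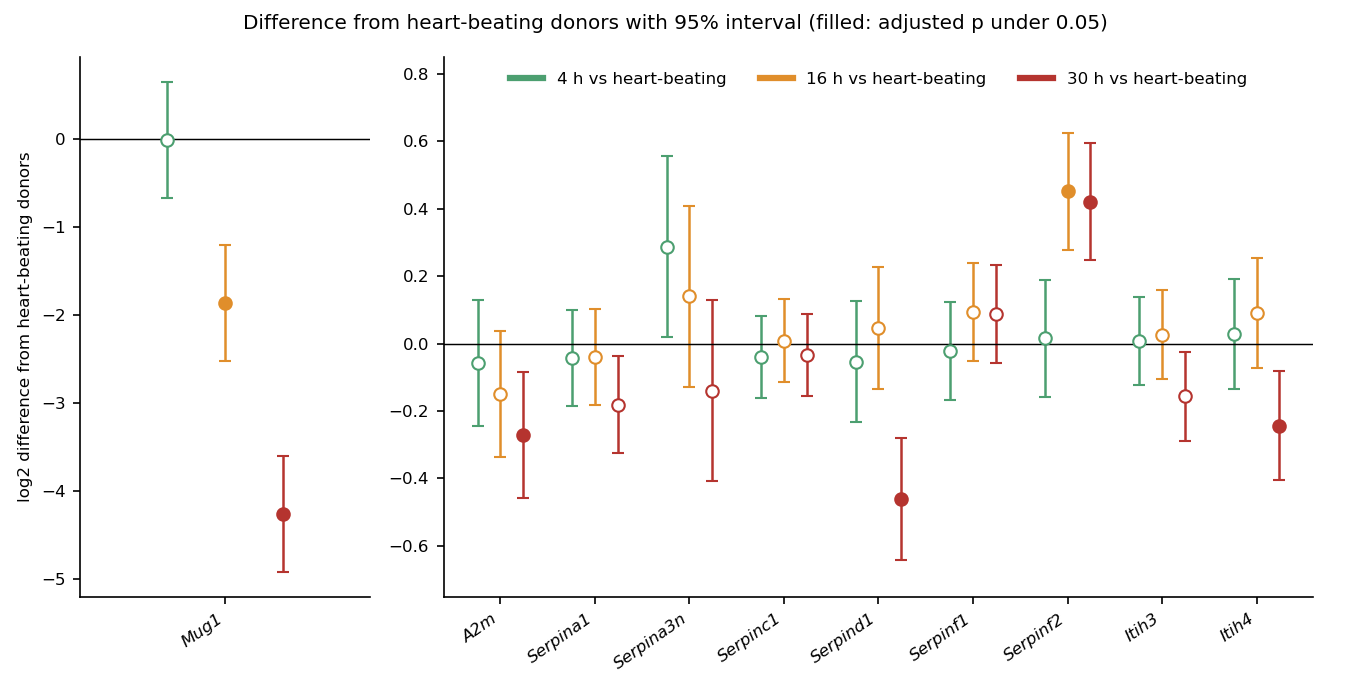
Log2 difference from heart-beating donors (vertical axis) at 4, 16 and 30 h for Mug1 (left, own axis) and the other 9 genes (right). Points are limma estimates from 3 against 3 arrays, bars are 95% intervals, and filled points have an adjusted p under 0.05. Filled points are Mug1 and Serpinf2 at 16 h, and Mug1, A2m, Serpind1, Serpinf2 and Itih4 at 30 h.

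Counted over the 10 genes, 0 were called at 4 h, against 0.0226% of all 31042 probe sets (7 called). At an unadjusted p under 0.05 there was 1 gene, Serpina3n, against 5.27% of all probe sets. At 16 h 1 was lower (1.49% of all probe sets were) and 1 higher (3.18%), so 2 of 10 were called, against 4.67% of all. At 30 h 4 were lower (9.36% of all) and 1 higher (10.4%), so 5 of 10 were called, against 19.7% of all probe sets. Among probe sets in the upper 50% by mean signal 30.2% were called, but A2m, a member called at 30 h, lies outside that part. The median log2 difference of the 10 genes was -0.01 at 4 h, 0.04 at 16 h and -0.17 at 30 h, beside 0.00, -0.02 and 0.01 over all probe sets. Groups did not overlap for 2 of 10 genes at 4 h, 5 at 16 h and 7 at 30 h, while this held for 13.5%, 28.7% and 33.5% of all probe sets. Between 4 and 16 h 2 were called, Mug1 lower and Serpinf2 higher (7.82% of all probe sets were called). Between 16 and 30 h 3 were called, all lower (Mug1, Serpind1 and Itih4), against 5.95% of all probe sets lower and 10.2% called in either direction. The comparisons with heart-beating donors share the same 3 control arrays. The 30 h count of 5 depended on the setting, since A2m and Itih4 lay close to the threshold: it was 3 without 30 h animal 1, without any 1 heart-beating animal, without 4 h animal 3, without 16 h animal 2, with only the 2 groups compared, with the replicate block and after cyclic loess. In each of these Mug1 and Serpind1 were lower and Serpinf2 higher. Animal 1 of the 30 h group had the lowest of all 12 values in 5 of the 10 genes (Serpina1, Serpina3n, Serpind1, Itih3 and Itih4). It also had the widest Gapdh difference, but among the 30 h animals the narrowest beta-actin difference (2.75, against 2.92 and 2.95).

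Genes around these inhibitors were followed by the brightest probe set of each. Over all 14217 genes, read in the same way, 10.5% were called lower and 12.5% higher at 30 h. Among other serpins of plasma, 1 of 9 measured genes was called lower at 30 h and 0 higher. It was Serpina3m, a serpin of the antichymotrypsin cluster, at 9.47 ± 0.26, against 10.40 ± 0.15 in heart-beating donors (-0.93, SE 0.16, adjusted p = 0.00137). The others with the smallest p were Serpina12, or vaspin (-0.20, adjusted p = 0.133), Agt, angiotensinogen, the serpin that serves as hormone precursor (0.29, adjusted p = 0.158), and Serpina11 (-0.19, adjusted p = 0.205). Of the other macroglobulin and inter-alpha-inhibitor genes, 0 of 4 were called at 30 h: the macroglobulin Pzp differed by -0.24 (adjusted p = 0.0883), the heavy chains Itih2 by -0.36 (adjusted p = 0.0556) and Itih1 by 0.09 (adjusted p = 0.318), and Ambp, the precursor of bikunin, by -0.08 (adjusted p = 0.352). In this list 2 of 4 had an unadjusted p under 0.05, against 31.6% of all probe sets.

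Among other plasma inhibitors, 2 of 10 were lower at 30 h and 1 higher, beside 10.5% lower and 12.5% higher of all genes. The same shares stand beside the counts of proteases below. Spp2, a secreted protein with a cystatin-like domain, averaged 11.09 ± 0.50, against 12.56 ± 0.04 in heart-beating donors (-1.48, SE 0.17, adjusted p = 0.000112). Hrg, histidine-rich glycoprotein, was lower by -0.33 (adjusted p = 0.0279), and Cst3, the cysteine protease inhibitor cystatin C, was higher by 0.27 (adjusted p = 0.0232). Timp1, an inhibitor of matrix metalloproteases, was not called (0.31, adjusted p = 0.0613). Of the proteases that plasma inhibitors act on, 2 of 12 were lower at 30 h and 2 higher. F2, prothrombin, whose active form is the target of Serpinc1 and Serpind1, averaged 11.88 ± 0.32, against 12.76 ± 0.07 in heart-beating donors (-0.88, SE 0.12, adjusted p = 0.000344). Masp2 of the lectin pathway of complement was lower by -0.96 (adjusted p = 0.00175), and Masp1 of the same pathway higher by 0.74 (adjusted p = 0.000589). Both had 3 probe sets, of which only the brightest is given. Klkb1, plasma kallikrein, was higher by 0.26 (adjusted p = 0.0480). Plg, the precursor of plasmin and target of Serpinf2, differed by 0.01 at 30 h (adjusted p = 0.929); it lies outside the rule for named genes and was picked after its value was seen.

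Of 5 genes for the clearance of secreted proteins and protease complexes, 4 were lower at 30 h and 0 higher. They were 3 genes of receptors and 1 of a receptor chaperone: both asialoglycoprotein receptor chains, Asgr2 (-1.33, SE 0.16) and Asgr1 (-1.14, SE 0.17), Lrpap1, a chaperone of lipoprotein receptors (-0.90, SE 0.11), and Lrp1, which takes up macroglobulin and serpin complexes (-0.42, SE 0.12), with adjusted p from 0.000102 (Asgr2) to 0.0212 (Lrp1). Lrpap1 and Lrp1 had 2 probe sets each, of which only the brighter is given. Among regulators of these genes, 3 of 11 were higher and 2 lower at 30 h. Of those named, Hnf4a had 3 probe sets, Cebpa 5 and Onecut1 2, again with only the brightest given. Hnf4a (0.76, SE 0.11, adjusted p = 0.000435) and Cebpa (0.70, SE 0.15, adjusted p = 0.0066), transcription factors that drive hepatocyte genes, were higher, while Onecut1 (-1.21, SE 0.36, adjusted p = 0.0300), another such factor, and Socs3 (-0.21, SE 0.06, adjusted p = 0.0350), a brake on cytokine signalling induced in the acute phase, were lower. Over the 6 lists together, 11 of 51 measured genes were lower and 6 higher at 30 h, 4 were higher and 0 lower at 16 h, and 0 were called at 4 h. Among the brightest probe sets of all 14217 genes, 10.5% were lower and 12.5% higher at 30 h, and 1.30% were lower and 4.30% higher at 16 h.

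**Figure D5:**
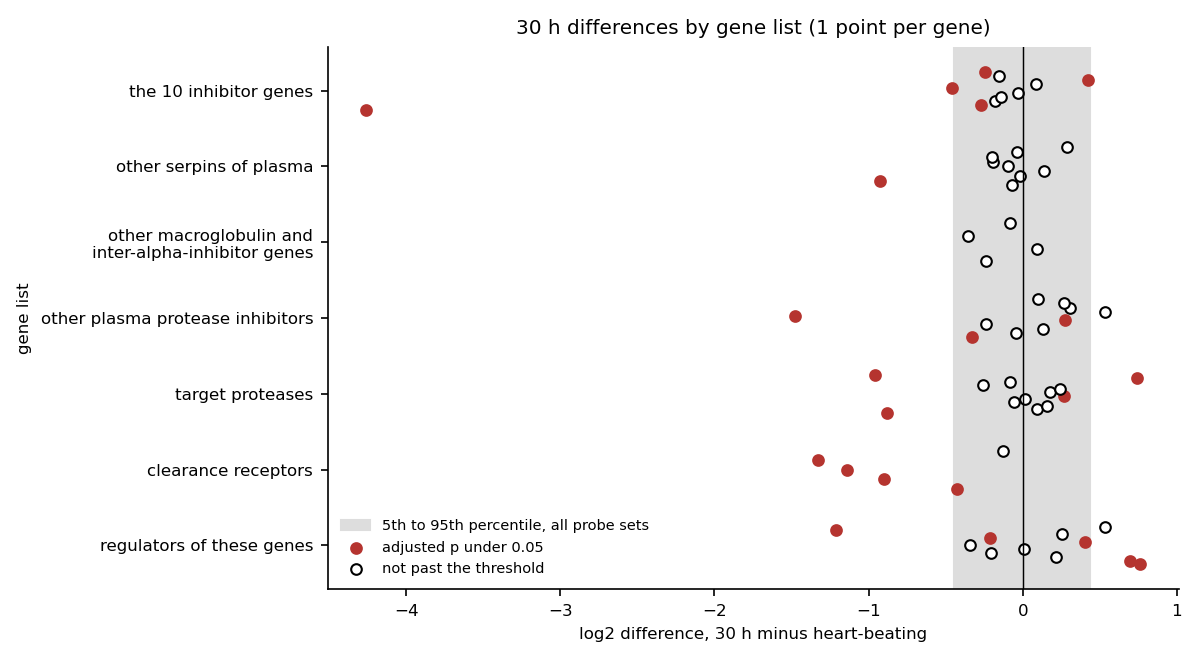
Log2 difference between 30 h and heart-beating donors (horizontal axis) for the 10 inhibitor genes and 6 lists of related genes, 1 point per gene. Filled points have an adjusted p under 0.05, and the grey band spans the 5th to 95th percentile of all 31042 probe sets (-0.45 to 0.43). Mug1, at -4.26, stands far left, and 4 of 5 genes in the row of clearance receptors, which include the chaperone Lrpap1, lie left of 0 as filled points.

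Markers of other cells moved on the same arrays. They too were read by the brightest probe set of each gene. Over all 14217 genes read so, 10.5% were lower and 12.5% higher at 30 h. At 16 h these shares were 1.30% and 4.30%. Of 8 macrophage markers 5 were called lower at 30 h, with a list mean of 7.44 to 7.71, against 8.25 to 8.42 in heart-beating donors. Of 5 red cell markers 4 were higher, with a list mean of 9.21 to 9.90, against 8.09 to 8.24. Of 10 stellate cell markers 3 were higher and 0 lower (7.26 to 7.62, against 6.89 to 7.28), of 8 endothelial markers 1 was higher and 0 lower (7.55 to 8.07, against 7.70 to 7.81), and of 4 leukocyte and 5 bile duct markers 0 were called. Of 9 hepatocyte markers 2 were lower and 1 higher at 30 h (12.09 to 12.27, against 12.32 to 12.45). At 16 h 5 of 8 macrophage markers were lower (list mean 7.64 to 7.93), 3 of 5 red cell and 3 of 8 endothelial markers were higher, 1 of 10 stellate markers was lower (Acta2) and 1 higher (Reln), and 1 of 9 hepatocyte markers was higher (Hnf4a). The part of these shifts in the values of the inhibitor genes was not tested.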

How the data were processed

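Hepatocyte RNA from 12 rats was measured on 12 Affymetrix arrays, 3 for each of 4 groups. The authors deposited log2 signals per probe set; RMA and limma are named in the submitters' processing notes, with versions and settings not given in the sources used here. RMA brings the signals of all arrays to a like distribution (array medians 5.83 to 5.90), so a loss shared by all transcripts leaves no trace. Of 31099 probe sets, 57 controls were left out of tests. Of the other 31042, 20826 carried 1 gene symbol, 436 several and 9780 none; only those with 1 were named, and the IDs of all 10 members matched RefSeq (GRCr8).

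One mean per group was fitted to every probe set with limma 3.58.1 in R 4.3.3 (8 residual and 4.93 prior degrees of freedom), and adjusted p-values are Benjamini-Hochberg over 31042. The fit was tested on simulated data. Differences within arrays used exact two-sided permutation tests (SciPy 1.17.1). The planned comparison of probe sets within a member gene could not be made, because each member has 1 probe set.

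The members, lists, tests and settings were chosen with earlier results of these data known. Every member is described; of each list, up to 4 genes with the smallest p at 30 h are named. Alternatives were median centring, cyclic loess, quantile normalization, the upper 50% by mean signal, the brightest probe set per gene, robust settings with a variance trend, weights for arrays, only the groups compared, a replicate block, the Gapdh 3' to 5' difference as covariate, and leaving out each array. Not planned, and chosen after seeing the data were a fit without 30 h arrays and the several-gene murinoglobulin probe set. The plan also did not hold the within-array tests of Mug1 against that probe set, Serpinf2 against Serpinf1 and Itih4 against Itih3. The labels do not say whether equal replicate numbers pair the animals. Deviations of same-numbered arrays correlated at -0.27 to 0.11 over 18 pairs. Arrays with different numbers were not compared, so these values do not settle it. The number of arrays limits the precision.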

Additional observations from a re-analysis of the deposited data

Results flagged for a closer look

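In 5 cases the difference from heart-beating donors was not the same at one time as at the next, by limma's contrast of both times, in which the shared donors cancel. No test compared the change over one interval with that over another. Mug1 was lower at 30 h than at 16 h by a log2 difference of -2.40 (SE 0.31, adjusted p = 0.000611) and lower at 16 h than at 4 h by -1.85 (SE 0.31, adjusted p = 0.00342). Serpind1 was lower at 30 h than at 16 h by -0.51 (SE 0.08, adjusted p = 0.00270), and Itih4 by -0.33 (SE 0.08, adjusted p = 0.0144). Serpinf2 was higher at 16 h than at 4 h by 0.44 (SE 0.08, adjusted p = 0.00619). The Gapdh 3' to 5' difference also moved over these intervals, and its part in them was not tested apart from the covariate fit. Groups of 3 arrays are too small for a test of single outlying arrays.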

How the results depend on the processing

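Of the 10 genes, 0 were called at 4 h in every setting run. The count at 16 h (2 of 10) stayed 2 under every other setting and became 0 with the Gapdh difference as a covariate, as did the counts of 16 h against 4 h (2, then 0), 30 h against 16 h (3, then 0) and 30 h against heart-beating donors (5, then 0). Of all probe sets that fit called 0.226% at 16 h, 4.19% for 16 h against 4 h, 0.0258% for 30 h against 16 h and 0 at 30 h. In the same covariate fit the 30 h difference of Serpind1 turned to 0.24. At an unadjusted p under 0.05 limma's covariate fit had 1 gene at 4 h (6.61% of all probe sets), 3 at 16 h (21.6%), 1 at 30 h (14.3%), 2 between 4 and 16 h (25.5%) and 0 between 16 and 30 h (10.1%). The Gapdh difference follows time after death. The 30 h count was 3 with cyclic loess, with only the 2 groups compared and with the replicate block, 6 after further quantile normalization (Serpina1 added), and 3 to 5 when single arrays were left out. Leaving out single arrays gave 2 at 16 h, 2 between 4 and 16 h, and 2 to 4 between 16 and 30 h. The replicate block changed no other count, and whether the numbers of the replicates pair the animals is not known. The difference of Mug1 at 30 h ranged from -4.42 to -2.55 over 22 settings and kept its call in 21. Its 16 h difference was called by the Mug1 probe set in 22 of 23 settings, and not by the several-gene probe set (-0.11). Near the ceiling, and for A2m at low signal, small changes may not be seen.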
